A study of Rattus norvegicus with 6 samples.

Results

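The array described here set pooled kidney RNA of 7-day-old heterozygous Cy/+ rats, labelled with the dye Cy5, against a 7-day-old wild-type +/+ pool labelled with Cy3. It is 1 of 6 arrays on Han:SPRD rats, in which the Cy allele causes polycystic kidneys. The other arrays held +/+ and Cy/Cy pools at 7 days, and pools of all 3 genotypes at 3 days, each against a +/+ pool of its own age. The array was chosen by its label, and spots with the scanner software's outlier flag and control spots were left out. It measured 12755 genes of 17028 that could be named on the array design, and 12330 of them were well above background in both dyes. All pools came from whole left kidneys of the same strain, without treatment in the labels, and the number of animals in a pool was not given there. Ratios are log2 of Cy5 over Cy3, so a positive value is a higher level in the Cy/+ pool.

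In this strain the Cy allele is a missense change in Anks6, which encodes a protein of the primary cilium with ankyrin repeats and a SAM domain. Homozygous rats lose kidney function within weeks of birth, while heterozygotes develop cysts slowly, mainly from the proximal tubule. At the ages studied the rat kidney is still forming nephrons, and the transporters and enzymes of the proximal tubule are still rising towards adult levels.

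With 1 array there was no repeat of the pools and no test could be made. The only repeats were spots of the same probe and different probes of the same gene, which share the RNA and the labelling. Spots of a probe differed with a pooled SD of 0.05 on the log2 scale (201 probes), and different probes of a gene with a pooled SD of 0.17 (3199 genes). No spot was saturated, and 67.41% of spots in Cy3 and 68.97% in Cy5 were well above background. Dyes were not swapped, so dye bias of a probe and genotype cannot be told apart. The 7-day array labelled +/+ could not serve as a measure of that bias. It went against its label, with 16.6% of genes past 2-fold from its own +/+ reference, and its values are given below only as those of the array labelled +/+. The direction of every value below rests on the label of the Cy/+ array, since a missense change need not alter the level of Anks6 RNA.

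Most genes lay close to the reference: the central 95% of log2 ratios ran from -0.50 to 0.52. At least 2-fold higher in the Cy/+ pool were 53 genes (0.416% of those measured), and at least 2-fold lower were 25 (0.196%). At the 1.5-fold line, 238 genes were higher (1.87%) and 179 lower (1.4%). Higher genes made up 57.1% of those past 1.5-fold. That split depends on the curve fitted to remove dye differences that change with brightness: with the array centred on its median, the median of all genes moved by 0.40 and 98.2% of the genes past 1.5-fold were higher, 4092 against 75. Of the genes past 1.5-fold named here, Aqp2, Ppp1r1a and Rsrp1 changed sign with that centring. Other lower genes kept their sign but came within 1.5-fold. Among them were Hbb (-0.45), S100g (-0.45), Cdkn1c (-0.26), Casr (-0.20), Hoxa5 (-0.06) and Klk1 (-0.05). Calb1 (-0.64), Defa5 (-0.66) and RatNP-3b (-0.78) were among those that stayed past 1.5-fold. Between the 1.5-fold lines many values below 0 turned above it, among those named here G6pc1, Miox, Pck1, Crabp2, Sox4, Vcam1, Ccnd2 and Thsd7a. Medians of lists are therefore read against the median of all genes.

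**Figure D1:**
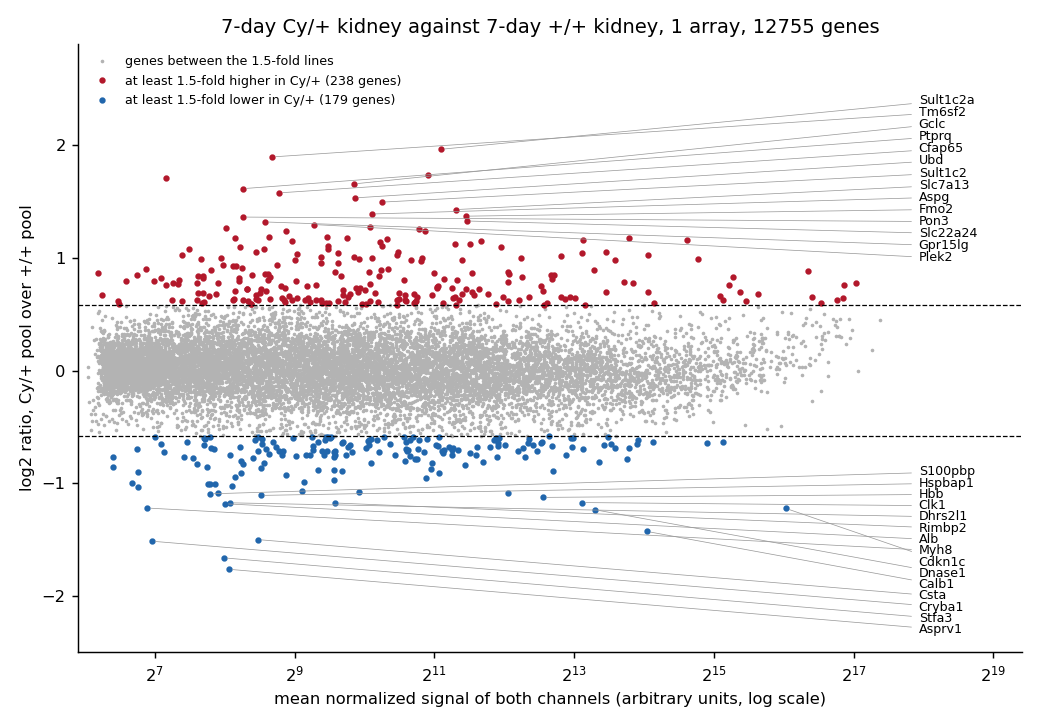
Log2 ratio of the 7-day Cy/+ pool over the 7-day +/+ pool against the mean normalized signal of both dyes (arbitrary units, log axis), 1 point a gene, with 14 of the highest and the 15 lowest genes named. The higher genes named lie over a range of signals, while Asprv1, Stfa3, Cryba1 and Csta, the lowest, lie among the dim genes.

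The highest gene was Sult1c2a, which with Sult1c2 encodes cytosolic sulfotransferases, enzymes that add sulfate to small molecules. By its brightest probe Sult1c2a gave a signal of 5266 in the Cy/+ pool and 1349 in the reference, 3.90-fold higher (log2 1.97). Its other probes gave 1.52 and 1.13. Sult1c2 gave 2480 against 879.4, 2.82-fold higher, and its 3 probes lay at 1.5, 0.92 and 0.86. The probe at 0.86 was not well above background in the reference, so its ratio is no exact value. The other 5 probes of both genes lay at least 1.5-fold above the reference, and the lowest of them, at 0.92, was above 0 by more than the SD between probes of a gene (0.17). These copies are alike enough that a probe may bind both transcripts, and their levels were not separated here. The probes that are most alike are given here as the array files hold them, 5′ to 3′, with the bases they share in capitals. They share 43 of 48 aligned bases, with build rn3 positions chr9:591102-591161 for the Sult1c2 probe and chr9:996120-996179 for the Sult1c2a probe, both on the plus strand. The Sult1c2a probe thus lies in rn3 between the positions of other Sult1c2 probes. The brightest Sult1c2 probe (chr9:994117-994309, plus strand, across a gap in the genome) follows them for comparison.
Sult1c2: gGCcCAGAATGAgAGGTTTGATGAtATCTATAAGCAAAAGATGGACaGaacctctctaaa
Sult1c2a: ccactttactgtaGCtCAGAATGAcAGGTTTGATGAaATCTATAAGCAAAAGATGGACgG
Sult1c2, brightest probe: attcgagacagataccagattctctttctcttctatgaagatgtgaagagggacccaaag

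The other members of the sulfotransferase list did not follow them. Of 10 measured members, Sult1c2a and Sult1c2 were past 1.5-fold (20% against 1.87% of all genes). The next lay below that line, down to -0.11 for Sult1c3. The list's median was 0.27, against 0.02 over all genes.

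After Sult1c2a came Tm6sf2, a membrane protein of lipid export, at 966.8 against 259.5 (3.73-fold, log2 1.90). Gclc, the catalytic subunit of the enzyme that starts glutathione synthesis, gave 2000 against 634 (3.15-fold). Both were also high in the 3-day Cy/+ pool, at log2 1.84 and 1.82. The Gclc probe lies at chr8:82780716-82780775 of rn3 on the plus strand, and is given because a single probe carries that value.
Gclc: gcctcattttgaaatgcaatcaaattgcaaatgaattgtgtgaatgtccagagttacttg

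Ptprq, a receptor-type phosphatase, followed with 651.7 against 212.7 (log2 1.61), and Cfap65, a protein of cilia and flagella, with 924.5 against 309.7 (1.58). Ubd, a ubiquitin-like protein induced by inflammatory cytokines, gave 1922 against 664.2 (1.53). Ubd was the only gene among the 14 highest genes named that lay below its reference in the 7-day Cy/Cy pool, at -0.23. The others were Slc7a13 (1.43), an acidic amino acid transporter, Aspg (1.39), an asparaginase, Fmo2 (1.37), a flavin monooxygenase, Pon3 (1.36), a paraoxonase, Slc22a24 (1.33), an organic anion transporter, Gpr15lg (1.32), a ligand of the receptor Gpr15, and Plek2 (1.30), a pleckstrin relative. Each of the 14 genes lay above 0 at 3 days as well, between 0.87 for Ubd and 1.91 for Aspg. On the 7-day array labelled +/+ the 14 genes ran from -4.06 for Slc22a24 to 4.28 for Gpr15lg. Aspg (3.10), Pon3 (2.93), Tm6sf2 and Ubd (both 2.46) were high there, while Slc7a13 (-3.82), Fmo2 (-2.43) and Sult1c2a (-2.31) were low.

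**Figure D2:**
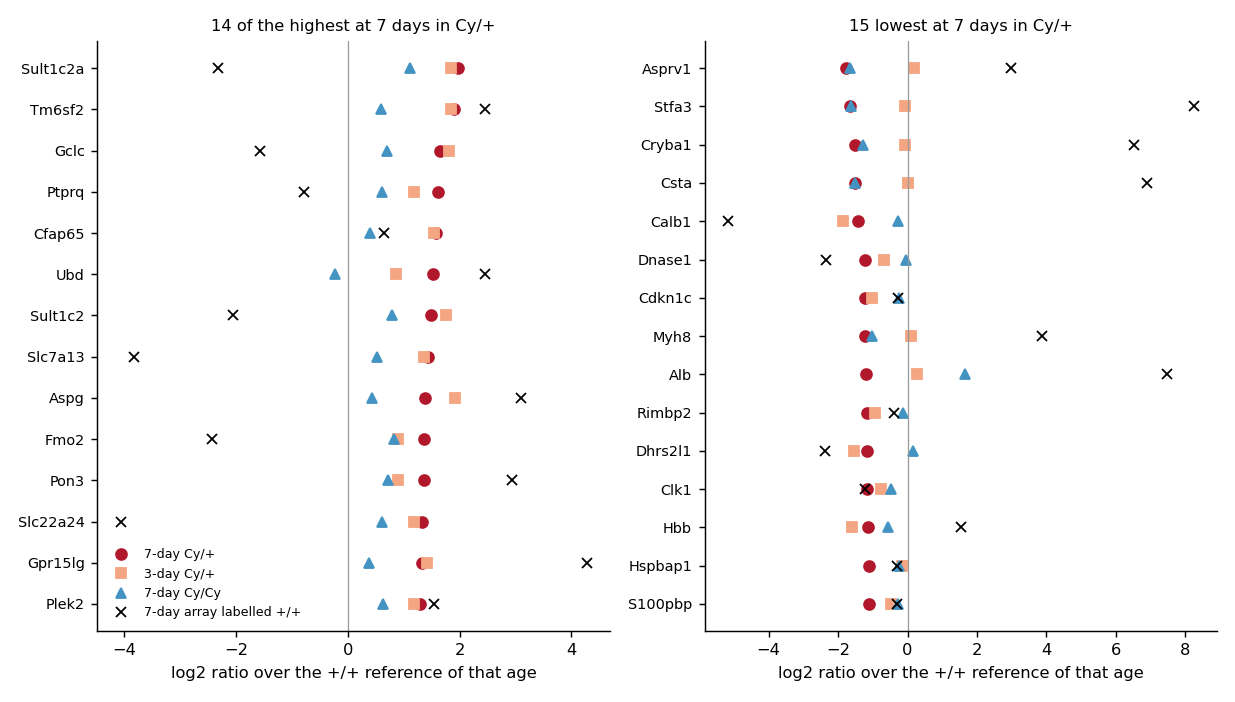
Log2 ratio over the age-matched +/+ reference for 14 of the highest and the 15 lowest genes of the 7-day Cy/+ array, with the values on 3 other arrays; 1 point an array. The 14 high genes are also above 0 in the 3-day Cy/+ pool, while Asprv1, Stfa3, Cryba1 and Csta are near 0 there, as low in 7-day Cy/Cy as in 7-day Cy/+, and far above 0 on the 7-day array labelled +/+. On that array the 14 high genes run from -4.06 (Slc22a24) to 4.28 (Gpr15lg).

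One more high gene could only be bounded. Hnmt, which inactivates histamine by methylation, gave a signal of 306.2 in the Cy/+ pool and was not well above background in the reference, so it was at least 3.27-fold higher. For such genes the bound divides the brighter signal by whichever is higher, the dim dye's own signal or the lowest signal called well above background in that dye. Hnmt was at 3.06 on the log2 scale at 3 days and 0.26 in 7-day Cy/Cy. The other bounds were smaller: at least 1.87-fold for Tmprss11e, a serine protease, 1.8-fold for Abcb1a, a drug efflux pump, 1.73-fold for Ugt2b7, a glucuronosyltransferase, and 1.47-fold for Nr2e1, a nuclear receptor. Of the 5 measured genes of the histamine list, Hnmt alone was past 1.5-fold (20% against 1.87% of all genes).

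Markers of the proximal tubule, the segment that reabsorbs most of the filtrate, made up the list with the highest median of the 37 described. Of 43 measured markers 15 were at least 1.5-fold higher and 0 at least 1.5-fold lower, or 34.9% against 1.87% of all genes. The median was 0.46 and 37 of the 43 lay above 0. Kap, a kidney protein regulated by androgen, was highest at 3504 against 1486 (log2 1.24). Hao2, a peroxisomal oxidase, gave 43005 against 19239 (1.16). Cyp2e1, a cytochrome P450, gave 16018 against 7186 (1.16), and Aadat, an aminotransferase, 5864 against 2635 (1.15). These signals are bright, well away from background in both pools.

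The transporters and surface proteins of the segment lay lower on the scale. Cltrn, the amino acid transporter partner collectrin, was at 1.03, the protease Mep1a at 0.99 and its partner Mep1b at 0.59. The glucose transporter Slc2a2 was at 0.99, the dicarboxylate transporter Slc13a3 at 0.88, the amino acid transporters Slc6a18 and Slc7a9 at 0.86 and 0.64, and the sulfate transporter Slc13a1 at 0.71. The endocytic receptors Lrp2 (megalin) and Cubn (cubilin) were at 0.76 and 0.71. Fbp1, an enzyme of gluconeogenesis, was at 0.65. The second probe of Fbp1 gave 0.23, so that value rests on the brighter probe, and the second probe of Slc13a1 was not well above background in the reference. Below 0 were G6pc1 (-0.54), Miox (-0.49) and Pck1 (-0.14), which act in glucose release, inositol breakdown and gluconeogenesis, though not with the array centred on its median. In whole-kidney RNA, more cells of a type and more RNA per cell cannot be told apart.

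The same markers had a median of 0.21 at 3 days and 0.26 in 7-day Cy/Cy. Cyp2e1 differed most between ages among those past 1.5-fold, with 1.16 at 7 days and 0.03 at 3 days. Fbp1 was higher in 7-day Cy/Cy (0.94) than in 7-day Cy/+ (0.65).

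Pathway lists of metabolism, not limited to the proximal tubule, had lower medians than the proximal tubule markers. In the list of glutathione and NRF2 targets, 29 of 40 measured genes lay above 0 and the median was 0.21, but only Gclc (1.66) and Me1 (1.02), malic enzyme, were at least 1.5-fold higher, and Gstm5 (-0.73), a glutathione transferase, was lower. In amino acid metabolism Slc7a13, Aspg and Cth (0.67), which makes cysteine, were past 1.5-fold among 25. In fatty acid oxidation and PPAR targets, Acot1 (0.78), Cyp4a1 (0.62) and Fabp3 (0.60) were past that line among 28, and the median was 0.14 at 7 days, -0.17 at 3 days and 0.18 in 7-day Cy/Cy. Cyp4a1, a fatty acid hydroxylase induced through PPAR alpha, was at -0.28 at 3 days. Sterol synthesis genes lay above 0 in 23 of 25 cases with a median of 0.22, and Insig1 (0.75), a sterol sensor partner with 4 probes between 0.56 and 0.91, was the 1 member past 1.5-fold. The respiratory chain (Cycs, 0.62), glycolysis with lactate transport (Slc16a1, 0.76) and gluconeogenesis (Fbp1) each had 1 member past that line. Shares at least 1.5-fold higher, against 1.87% of all genes, were 5% for glutathione, 12% for amino acids and 10.7% for fatty acid oxidation. They were 4% for sterol synthesis, 2.94% for the respiratory chain, 4.35% for glycolysis and 10% for gluconeogenesis.

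The series title names RXR signalling, the pathway of the retinoid X receptors. Of 24 measured retinoid receptors and enzymes, 0 were at least 1.5-fold higher and 1 was lower: Rxrg, the gamma form of the receptor, at 856.9 against 1358 (log2 -0.66), with a second probe at -0.27. Crabp2, which carries retinoic acid to its receptor, was at -0.58, and Cyp26b1, which degrades retinoic acid, at 0.45. The list's median was -0.11, and the share lower was 4.17% against 1.4% of all genes.

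Several genes linked to tubular injury lay higher. Havcr1, the injury marker KIM-1, gave 286.3 against 140.3 (log2 1.03), and Spp1, osteopontin, 45681 against 22962 (0.99). Il24 (0.82), a cytokine, and Ccn2 (0.65), a matricellular growth factor, followed. Of 29 measured members of the list 5 were at least 1.5-fold higher, 17.2% against 1.87% of all genes, and 0 were lower. Lcn2, a widely used marker of tubular damage, was at 0.19, and Sox4 and Vcam1 were at -0.57 and -0.56. Havcr1, Spp1 and Il24 were at 1.35, 1.54 and 1.80 in the 3-day Cy/+ pool, while in 7-day Cy/Cy these and Ccn2 lay between 0.06 and 0.46.

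Cell cycle genes lay above 0 in 30 of 34 cases, with a median of 0.28. Rrm2, which makes deoxyribonucleotides, was highest at 2493 against 1199 (1.06), followed by Ccne2 (0.80), Aurkb (0.73), Mcm4 (0.64) and Pcna (0.59), 5 of 34 past 1.5-fold (14.7% against 1.87% of all genes) and 0 in the other direction. The second probes of Rrm2, Ccne2 and Aurkb lay lower, at 0.43, 0.26 and 0.31, and those of Mcm4 and Pcna at 0.61 and 0.78. The Aurkb probe at 0.73 is placed on chromosome 20 of rn3 and the probe at 0.31 on chromosome 10. Whether both measure Aurkb was not tested. Ccnf (-0.40) and Ccnd2 (-0.32) were lowest. The median was 0.43 at 3 days and 0.06 in 7-day Cy/Cy.

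Among the lower genes that were bright were markers of the distal nephron. Calb1, the calcium-binding protein calbindin D28k of the distal convoluted and connecting tubule, gave 12097 against 32566, 2.69-fold lower (log2 -1.43). A second bright probe gave -1.15. S100g, calbindin D9k, gave 3517 against 7468 (-1.09), and Klk1, tissue kallikrein, 3678 against 5864 (-0.67). These were the 3 of 17 measured markers of that segment at least 1.5-fold lower, 17.6% against 1.4% of all genes, and Cyp24a1 was the 1 that was higher. Of the 17, 15 lay below 0, or 8 with the array centred on its median. In 7-day Cy/Cy the values were -0.27 for Calb1, -0.29 for S100g and 0.22 for Klk1. At 3 days Calb1 was at -1.86, S100g at -1.47 and Klk1 at -0.54.

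Probes of Calb1 disagreed. A pair of dim probes gave 0.50 and 0.52, with reference signals of 346.3 and 391.7, while the bright probes had 14045 and 32566. A bright probe (chr5:30475783-30475991 of rn3, plus strand) and a dim probe (chr5:30480258-30480317, plus strand) are printed here, and the array files name the same accession for both. At 3 days the dim probes gave 0.52 and 0.56, so the disagreement recurred. A probe without a gene name at chr5:30481136-30481195, beyond the Calb1 probes on the same strand, gave 9503 against 26000 (-1.45 at 7 days and -1.82 at 3 days).
Calb1, bright probe at -1.15: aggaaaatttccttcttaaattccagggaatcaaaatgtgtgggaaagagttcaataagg
Calb1, dim probe at 0.52: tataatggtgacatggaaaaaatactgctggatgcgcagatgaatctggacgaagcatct

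In the thick ascending limb, the calcium-sensing receptor Casr (3017 against 5299, -0.81) and the phosphatase inhibitor Ppp1r1a (-0.64) were lower and the potassium channel Kcnj16 (0.80) higher, 3 of 15 past 1.5-fold. That is 13.3% lower and 6.67% higher, against 1.4% and 1.87% of all genes. Dnase1, a secreted nuclease outside the lists, gave 7861 against 18510 (-1.24). Ptgs2, cyclooxygenase 2, which lies in this segment and the macula densa, gave 674.4 against 1246 (-0.89). It was at -2.08 at 3 days and 0.11 in 7-day Cy/Cy. In principal cells of the collecting duct, the water channel Aqp2 gave 10421 against 16449 (-0.66), and it was at 0.35 at 3 days. Aqp2 was the 1 of 16 markers past 1.5-fold, 6.25% lower against 1.4% of all genes. In intercalated cells the anion exchanger Slc4a1 was at -0.82, but Slc4a1 is also a red cell protein and its second probe gave -0.14. Direction in these lists depended on the scaling. Below 0 lay 13 of 15 markers of the thick ascending limb, 10 of 16 of principal cells and 12 of 16 of intercalated cells, but 1, 1 and 4 with the array centred on its median. Aqp2, Ppp1r1a, Slc12a1, the sodium, potassium and chloride cotransporter, and Rhcg, an ammonia transporter, were among those that turned. Below the median of all genes lay 13, 10 and 13 markers, and with that centring 9, 5 and 12.

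Podocytes, the filtering cells of the glomerulus, had 13 of 16 markers below 0 (2 with the array centred on its median), with a median of -0.13. Only Cdkn1c was past 1.5-fold, 6.25% lower against 1.4% of all genes. Cdkn1c encodes p57, an inhibitor of the cell cycle that podocytes express from an imprinted locus. It was among the brightest genes to be lower, at 49125 against 114767 (log2 -1.22), and its 4 probes lay at -1.22, -1.17, -1.09 and -0.69. In the list of cell cycle inhibitors and p53 targets it was also the 1 of 20 past 1.5-fold (5% lower against 1.4% of all genes). Cdkn2c (0.42) was highest there. Cdkn1c was at -1.02 at 3 days and -0.24 in 7-day Cy/Cy. Other podocyte genes were closer to 0, such as Thsd7a at -0.57 and Wt1 at 0.01.

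For lists of other kidney cells, the shares past 1.5-fold are set against 1.87% of all genes higher and 1.4% lower. Endothelium had 0 of 17, stroma 0 of 12 and lymphocytes 0 of 6. Among 13 genes of mesangium, pericytes and renin cells, 15.4% were higher and 7.69% lower. Ace (0.86), angiotensin-converting enzyme, and Tagln (0.61), a smooth muscle protein, were the higher ones and Cspg4 (-0.66), a pericyte surface protein, the lower. Lhx1 (-0.60), a transcription factor of early nephrons, was the 1 of 20 progenitor genes past 1.5-fold (5%). Ret (0.66), the receptor of the ureteric tip, and Calb1, which the tip also expresses, were past it among 10 ureteric genes, 10% each way. The other probes of Ret lay lower, down to 0.04. Matrix genes had a median of -0.14, and with the array centred on its median it lay 0.17 above that of all genes. Lox (0.74), which crosslinks collagen, was the 1 of 29 past 1.5-fold (3.45%), with a second probe at 0.78. Among macrophage and myeloid genes Spp1 was the 1 of 18 (5.56%), and immediate early genes had 0 of 19.

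**Figure D3:**
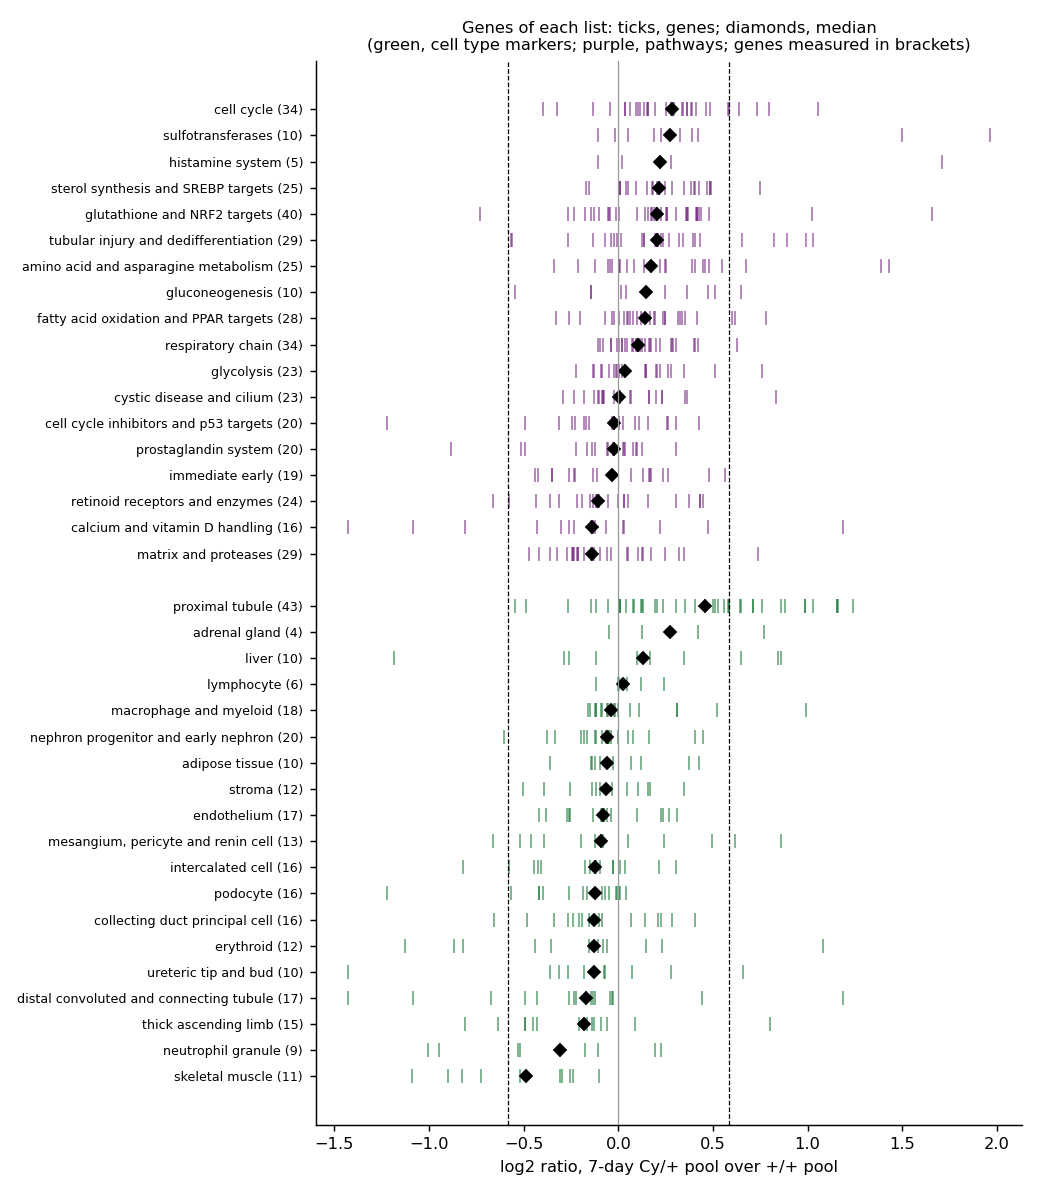
Log2 ratio of the 7-day Cy/+ pool over the 7-day +/+ pool for the genes of each list (ticks), with the median (diamond), sorted by median within cell type markers (green) and pathways (purple); dashed lines mark 1.5-fold. Proximal tubule markers have the highest median (0.46) and skeletal muscle markers the lowest (-0.49).

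The 4 lowest genes are known for expression outside the kidney. Asprv1, a protease of the skin, gave 174.8 against 594 (-1.76). Stfa3 (-1.66) and Csta (-1.5) are inhibitors of cysteine proteases and Cryba1 (-1.51) is a crystallin of the lens. Stfa3, Csta and Cryba1 each had a second probe, not well above background in either dye, so each value rests on a single probe. Myh8 (-1.22), also among the 15 lowest, is a myosin of developing skeletal muscle. Their signals in the Cy/+ pool were 86.48 to 256.5, close to the dimmest signals well above background. Each was low to a like degree in 7-day Cy/Cy, at -1.66, -1.63, -1.51, -1.29 and -1.01 for Asprv1, Stfa3, Csta, Cryba1 and Myh8. That array was set against +/+ RNA of the same age, and whether it was the same pool is not given in the labels. At 3 days the 5 genes lay between -0.07 and 0.19. On the 7-day array labelled +/+ they lay between 2.96 and 8.25. Skeletal muscle markers were low as well: 11 of 11 measured were below 0, and 4 were at least 1.5-fold lower (Tnni2, Ckm, Myl11 and Tnnc2), 36.4% against 1.4% of all genes, while Myh2, Myh4 and Myog were not above background. On the array labelled +/+ 11 of 11 of these markers were at least 2-fold higher. Liver markers did not move one way. Alb, albumin, was at -1.18 in 7-day Cy/+, 1.64 in 7-day Cy/Cy and 7.48 on the array labelled +/+. The fibrinogen chains Fga (0.86) and Fgb (0.65) and the iron carrier Tf (0.84) were higher in 7-day Cy/+ and also high on the array labelled +/+, at 5.04, 4.35 and 5.24. Of 10 measured liver markers, 3 were higher (30% against 1.87% of all genes) and 1 lower (10% against 1.4%), with a median of 0.13.

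Across the array, 10 of the 25 genes at least 2-fold lower (40%) were at least 4-fold higher on the 7-day array labelled +/+, against 674 of all 12755 (5.28%). Of the 53 genes at least 2-fold higher, 9 (17%) were so as well. At the 1.5-fold line the share was 14.5% of lower genes (26 of 179) and 11.3% of higher genes (27 of 238). Without such genes the count at least 2-fold lower was 15 in place of 25, and the count higher 44 in place of 53. The array labelled +/+ was also set against +/+ RNA of 7 days. The genes were chosen on ratios to such a reference, so these shares describe and support nothing. What part RNA of other tissues has in these values was not tested.

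Markers of blood were also among the lower genes. The haemoglobin chain Hbb gave 4876 against 10643 (-1.13) and Ahsp, which stabilizes haemoglobin, 1778 against 3250 (-0.87). Of 12 measured red cell genes 9 lay below 0 (7 with the array centred on its median), and the median was -0.13. At least 1.5-fold lower were 25% and higher 8.33%, against 1.4% and 1.87% of all genes. Gata1, Hbe1 and Rhag were not above background. Neutrophil genes Defa5 (-0.95) and RatNP-3b (-1.01) were the 2 of 9 past 1.5-fold, 22.2% lower against 1.4% of all genes. These 2 were at -0.775 and -0.87 in 7-day Cy/Cy, and at 4.87 and 4.54 on the 7-day array labelled +/+. At least 2-fold higher on the array labelled +/+ were 8 of 9 neutrophil and 10 of 12 red cell genes. Mpo, Ltf and Ngp were not above background. Adipose markers had 0 of 10 past 1.5-fold at 7 days and a median of -0.06, against 1.74 in the 3-day Cy/+ pool.

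Probes of the same gene gave a repeat measure for part of these genes. Of 18 genes with repeat probes that were at least 2-fold higher, all probes lay above 0 in 18 and past 1.5-fold in 15. Of 6 such genes at least 2-fold lower, all probes lay below 0 in 5 and past 1.5-fold in 2, Cdkn1c and Cpne4, a copine. At the 1.5-fold line 36 of 65 higher and 6 of 67 lower genes had every probe past it. Among the 10 with the highest mean over probes were Me1 (1.02 and 1.03), Pter (1.04 to 1.12 over 3 probes), Cldn1 (1.11 and 1.17), a tight junction protein, Slco1a3 (1.13 and 1.20), an organic anion transporter, and Bhmt (1.17 and 1.27), which remethylates homocysteine. Il33 (0.94 and 1.13), an alarmin, and Angpt2 (0.88 to 1.13 over 3 probes), a ligand of the vascular receptor Tie2, were also high in every probe. Among lower genes Hoxa5 (-0.75 and -0.66), a homeobox factor, Tff3 (-0.91 and -0.74), a trefoil peptide of mucosa, Myh3 (-0.93 and -0.76), an embryonic myosin, and Rsrp1 (-1.48 and -0.65), an arginine and serine-rich protein, passed in every probe.

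**Figure D4:**
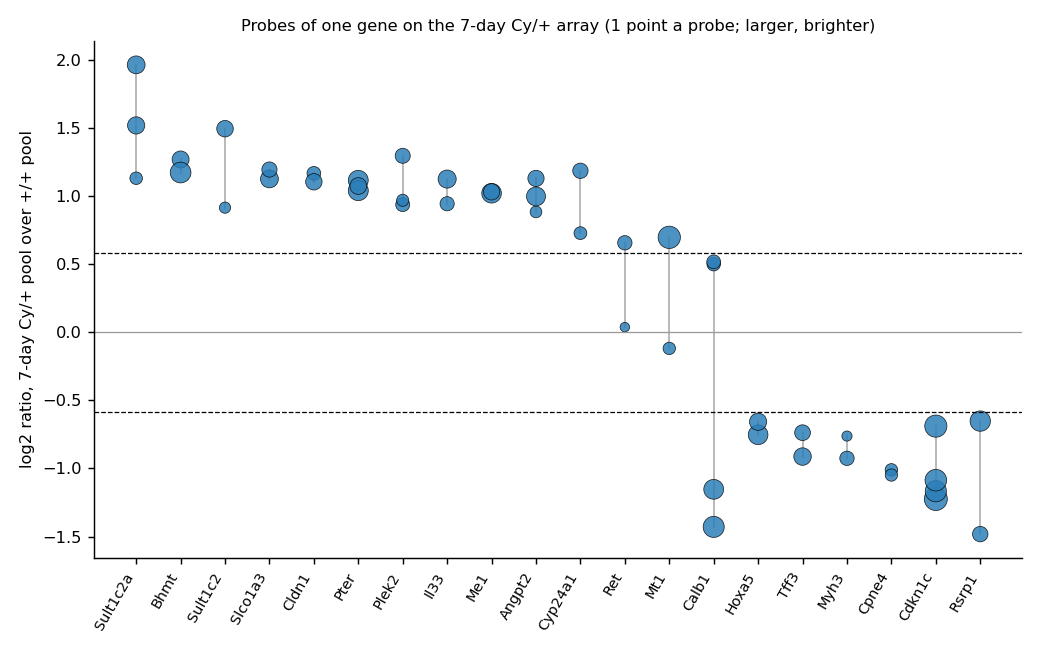
Log2 ratio of the 7-day Cy/+ pool over the 7-day +/+ pool for each probe well above background in both dyes, 1 point a probe with larger points for brighter probes, for 20 genes with repeat probes. Sult1c2a, Sult1c2 and Cdkn1c have every probe past 1.5-fold the same way, while the probes of Calb1 lie on both sides of 0.

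The 3-day Cy/+ array, with its own reference pool and its own slide but the same dyes, gave a second view of the genotype. Across 12471 genes measured on both arrays, Pearson's r was 0.57 and Spearman's rho 0.59, a description across genes that share dye orientation and probe. Of 236 genes at least 1.5-fold higher at 7 days, 225 were above 0 at 3 days and 125 past 1.5-fold. Of 173 lower genes, 151 were below 0 and 67 past 1.5-fold. Among all 12471 genes, 498 were at least 1.5-fold higher at 3 days and 263 at least 1.5-fold lower. The median of all genes on the 3-day array was 0.02. Higher genes had median ratios of 0.77 (7 days) and 0.63 (3 days), and lower genes of -0.71 and -0.46, a contrast that choosing genes on the 7-day values favours. The 3-day array was wider, with an SD of 0.33 against 0.25 and 153 genes past 2-fold against 78. Age and slide cannot be told apart.

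**Figure D5:**
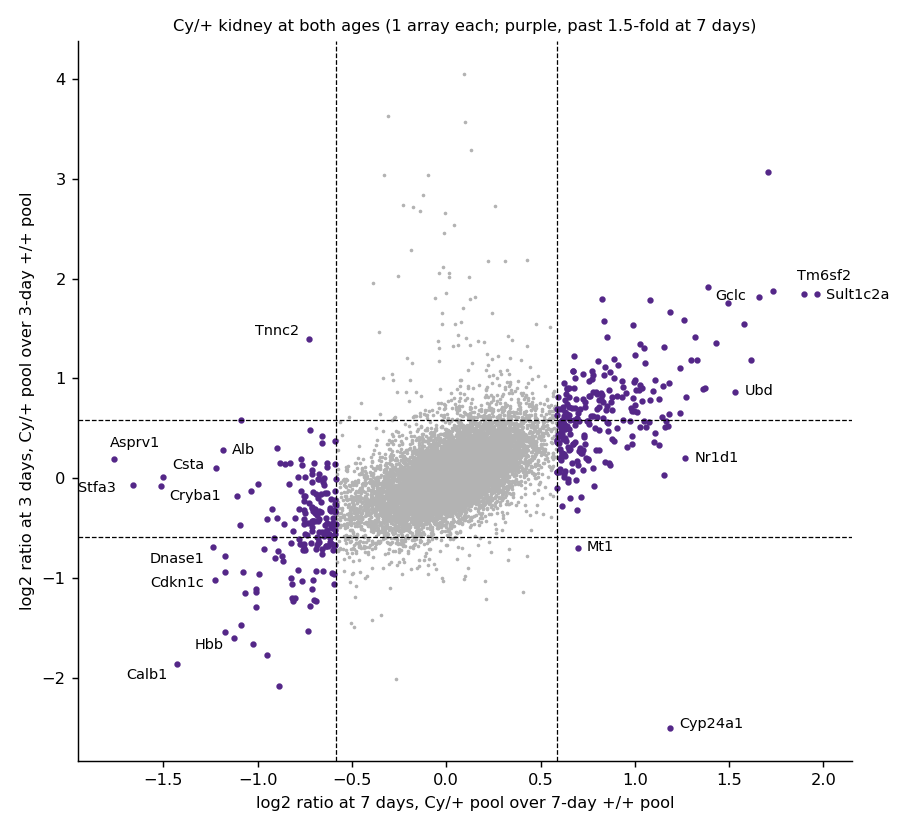
Log2 ratio of Cy/+ over its +/+ reference at 7 days (horizontal) and at 3 days (vertical), 1 point a gene, purple past 1.5-fold at 7 days. Sult1c2a, Tm6sf2 and Gclc lie high at both ages, Calb1 and Cdkn1c low at both, and Cyp24a1 lies above 1.5-fold at 7 days and below it at 3 days.

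Genes past 1.5-fold in opposite directions at the 2 ages numbered 3. Cyp24a1, which inactivates vitamin D, gave 1297 against 569.3 at 7 days (log2 1.19) and was at -2.5 at 3 days. Its second probe followed, at 0.73 and -1.64, and is printed here (chr3:161449277-161449336 of rn3, minus strand). Cyp24a1 was at 0.10 in 7-day Cy/Cy and -0.58 in 3-day Cy/Cy. In the list of calcium and vitamin D handling, Cyp24a1 was the 1 gene higher and Calb1, S100g and Casr the 3 lower among 16. These shares were 6.25% and 18.8%, against 1.87% and 1.4% of all genes. Mt1, a metallothionein, was at 0.70 at 7 days and -0.69 at 3 days by its bright probe, and at -0.12 and -0.30 by a dim probe. Tnnc2, a muscle troponin, was at -0.73 at 7 days and 1.39 at 3 days.
Cyp24a1: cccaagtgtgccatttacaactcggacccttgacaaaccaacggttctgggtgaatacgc

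Anks6 itself gave 156.7 in the Cy/+ pool and 140 in the reference (log2 0.16), a difference smaller than the SD between probes of a gene. It was at -0.04 at 3 days and 0.16 in 7-day Cy/Cy. Its probe, at chr5:63643642-63645033 of rn3 on the minus strand with a gap in the genome between its ends, is printed because this gene carries the Cy allele. Of 23 measured genes of cystic disease and cilium, Glis2, a zinc finger factor mutated in nephronophthisis, was the 1 past 1.5-fold, at 60757 against 34167 (0.83, its 3 probes between 0.47 and 0.83). Pkhd1 was at -0.29, the list's median was 0.00, and the share higher was 4.35% against 1.87% of all genes.
Anks6: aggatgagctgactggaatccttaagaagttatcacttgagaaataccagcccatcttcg

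In the 7-day Cy/Cy pool, measured against +/+ RNA of the same age, ratios were smaller. The genes at least 1.5-fold higher in 7-day Cy/+ had a median of 0.77 there and 0.41 in Cy/Cy, and those lower -0.71 and -0.27. The Cy/Cy array as a whole had an SD of 0.17 and 10 genes past 2-fold against 78. Both arrays had +/+ RNA of 7 days as the reference and the genes were chosen on the Cy/+ values, so no overlap or correlation is given. Among the genes named, Sult1c2a was at 1.11, Gclc at 0.70, Calb1 at -0.27 and Cdkn1c at -0.24 in 7-day Cy/Cy.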

How the data were processed

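Pooled RNA of whole kidneys was amplified, labelled and hybridised to 60-mer arrays with 2 dyes. Mean and background signals of each spot were deposited as scanner intensity, not normalized, per the file headers (Agilent Feature Extraction 9.5.1.1, probe positions in build rn3). Where the series text differs from the headers on array product and software version, the headers were followed. The deposited log ratio is log10 of the software's processed Cy5 over Cy3, per the file headers, and was used as an alternative.

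With R 4.3.3 and limma 3.58.1, mean signals were corrected against the median background by normexp with offset 50, which pulls ratios of dim genes towards 0, and normalized within the array by loess. On this array 125 of 43379 spots carried outlier flags and had weight 0, as had control spots. Spots of a probe were averaged. A probe was kept when at least 0.5 of its spots were well above background in 1 dye or both (28397 of 41012 probes), and a gene was represented by its brightest kept probe. Signals of each dye are in arbitrary units after loess and Aquantile normalization and are compared within a probe only. Names came from RefSeq's gene table of GRCr8, used for names only, by accession (10735 and 117 probes), symbol (5563), synonym (3723) or gene number (1908), and 18924 probes had none. To check that known folds were recovered, they were put on the Cy5 signal of probes of this array well above background in both dyes. With 1 array there is no test, and the fold lines are thresholds of size.

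Named genes were the 15 highest and 15 lowest, the 10 highest and up to 10 lowest with every repeat probe past 1.5-fold, in each list the 2 highest, the 2 lowest and every member past 1.5-fold, genes in opposite directions at the ages, 5 bounds and 5 unnamed probes each way, and Anks6. Of the genes this rule names, 4 are not reported here. The members and the 37 lists were chosen with earlier results of these data known. All arrays of an age lay on 1 slide, each genotype at a fixed position, so genotype and position cannot be told apart. Labelling and pooling in the labels do not say whether pools were made once or for each array.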

Additional observations from a re-analysis of the deposited data

Results flagged for a closer look

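Results that went opposite ways at the ages came up for 3 genes, and none of these differences was tested. Cyp24a1 was at a log2 ratio of 1.19 in the 7-day Cy/+ pool and -2.5 in the 3-day pool, the widest gap of the 3, and both of its probes did the same. Mt1 was at 0.698 and -0.693, but its dim probe lay below 0 at both ages. Tnnc2, a muscle gene that was at 5.74 on the 7-day array labelled +/+, was at -0.727 and 1.39. With 1 array for each group, no search for a sample far from the others of its group was possible.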

How the results depend on the processing

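The 4 counts of genes past a fold, the 37 list medians relative to all genes and the values at both ages were recomputed with other settings. With no background subtraction, median spot signals or only probes well above background in both dyes, all 46 of these results stayed within 1.5 times the count or within the SD between probes. With the array centred on its median the counts were 598 higher and 10 lower at 2-fold, and 4092 and 75 at 1.5-fold. With the scanner software's own log ratio they were 186, 105, 629 and 436, and with offset 10 they were 93, 45, 373 and 292, since less is then added to dim signals. Leaving out genes at least 4-fold higher on the 7-day array labelled +/+, a setting chosen after seeing the data, gave 15 genes at least 2-fold lower.

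Median centring moved these list medians: histamine -0.44, calcium and vitamin D -0.47, matrix 0.17, fatty acid oxidation 0.37, glycolysis 0.35, gluconeogenesis 0.48, respiratory chain 0.52, distal convoluted tubule -0.38, principal cell 0.0679, mesangium 0.18, ureteric 0.0306, erythroid -0.60, lymphocyte -0.45, skeletal muscle -0.93, adipose -0.29, adrenal 0.0799 and liver -0.42. The software's log ratio gave histamine 0.42, erythroid -0.34, skeletal muscle -1.06 and adrenal 0.65. Offset 10 gave histamine 0.40, skeletal muscle -0.82 and adrenal 0.44. Without a filter on dim probes the values were sulfotransferases 0.0387, histamine -0.00883, neutrophil -0.15, skeletal muscle -0.31 and adrenal 0.0216. Under median centring r between ages was 0.68, with 98.7% of higher and 73.3% of lower genes the same way at 3 days, and 91.1% of higher genes with the software's log ratio. Lower genes with every probe past 1.5-fold made up 20% under median centring and 25.3% with the software's log ratio. Aqp2 (0.0813), Ppp1r1a (0.16) and Rsrp1 (0.10) turned above 0 under median centring. For these values the cause was not tested.

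Each group had 1 array, so there was no replicate to leave out, and no interval covers the difference between pools. The number of arrays limits the precision. Dim genes such as Asprv1, Cryba1 and Myh8 lie close to background, where offset and filter set the size of a ratio.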

Other observations

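Genes of RNA processing and of the daily clock were looked at after their values had been seen, so the counts below describe and support nothing. Among 24 genes of RNA processing, 6 were at least 1.5-fold lower (25% against 1.4% of all genes) and 0 higher: Clk1 (-1.17), a kinase of splicing factors, Luc7l (-0.82), Rbm5 (-0.81), Ppp1r10 (-0.77), Clk4 (-0.71) and Rsrp1 (-0.65). With the array centred on its median Rsrp1 lay above 0 and the other 5 stayed below it, from -0.46 for Clk1 to -0.0783 for Rbm5. Of the SR proteins, Srsf1 (0.28), Srsf5 (0.22), Srsf2 (0.20) and Srsf3 (0.14) lay above 0 and Srsf6 (-0.15) and Srsf7 (-0.0922) below it, all 6 above 0 with that centring. At 3 days Clk1 was at -0.78, Luc7l at -0.65 and Rbm5 at -0.53, and in 7-day Cy/Cy they were at -0.47, -0.16 and 0.02.

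Nr1d1, a repressor of the daily clock, was at 1.27 in the 7-day Cy/+ pool, 0.20 at 3 days and 0.19 in 7-day Cy/Cy. It stayed above 1.5-fold with median centring (1.53) and with the software's log ratio (1.78). The other 14 measured clock genes lay within 1.5-fold, from -0.17 for Bmal1, which lay at 0.26 with median centring, to 0.57 for Bhlhe40.

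Probes that match no gene name reached the same range. The highest, on chromosome 2 (203740516 to 203740575 of rn3), was at 1.59 at 7 days and 1.69 at 3 days. The lowest, on chromosome 13 (98701234 to 98701293), was at -1.93 at 7 days, 0.15 at 3 days and -0.06 in 7-day Cy/Cy. Probes of a gene differed with an SD of 0.16 in the dimmest of 3 equal groups of genes and 0.18 in the brightest.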
